A study of Mus musculus with 24 samples.

Results

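The 3p microRNAs (miRNAs) of the miR-23a and miR-23b clusters were followed through degraded and depleted liver RNA: mmu-miR-23a-3p, mmu-miR-23b-3p, mmu-miR-24-3p, mmu-miR-27a-3p and mmu-miR-27b-3p. They were taken by name and make up 5 of the 1881 mouse miRNAs on a one-colour Agilent array. Each liver of 3 mice (numbered 7, 9 and 10) was divided into parts and gave 8 arrays, 1 in each of 8 groups, so that each group held 3 arrays. Strain, sex and age of these mice are not in the labels. In 4 groups total RNA with its small RNAs was isolated from tissue put into RNAlater stabilization reagent at once (0 h) or stored for 96 h at room temperature, each with or without DNase digestion on the column. The other 4 groups were RNA of unstored, DNase-digested tissue isolated with a column kit that loses most small RNAs, called depleted RNA here: untreated, or incubated with 0 U, 0.026 U or 0.67 U of RNase and purified again. Depleted RNA was not wholly free of small RNAs by the study's own account. The labels of mouse 9 disagree on which of its RNase arrays had which dose. These 2 arrays were grouped by their descriptions, which the RNA integrity numbers follow, although the array so placed at 0.026 U had the higher total signal, 177642 units against 70313 at 0.67 U.

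MiRNAs guide Argonaute proteins to messenger RNAs that pair with their seed, the bases near the 5′ end, and lower the output of those messages. The miR-23a cluster and the miR-23b cluster are paralogous: each encodes a miR-23, a miR-27 and a miR-24 hairpin in a row, and both give the same mature miR-24-3p. MiR-23 and miR-27 are best known from endothelial cells and blood vessel growth, miR-27 also from fat cell differentiation and lipid metabolism in the liver, and miR-24 from control of the cell cycle. In each hairpin the 3p arm is the one mostly loaded into Argonaute, and the 5p arm is usually rare.

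The mature sequences are shown because the 2 members of a paralogous pair are nearly the same molecule, which bears on how far array probes can tell them apart. They are taken from RefSeq (build GRCm38.p6), 5′ to 3′, with the seed (bases 2 to 8) in capitals. Entries were matched for 4 of the 5 members.
mmu-miR-23a-3p: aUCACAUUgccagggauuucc
mmu-miR-27a-3p: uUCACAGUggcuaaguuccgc
mmu-miR-27b-3p: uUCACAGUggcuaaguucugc
mmu-miR-24-3p: uGGCUCAGuucagcaggaacag
MiR-27a-3p and miR-27b-3p share their seed and differ at 1 of 21 bases, C19U, counted from the 5′ end with the miR-27a base first. The seeds of miR-23a-3p and miR-27a-3p differ at 1 base, U7G, and the seed of miR-24-3p is unrelated to either. On the plus strand the Mir23a, Mir27a and Mir24-2 hairpins lie within 404 bases at chr8:84208518-84208921, and Mir23b, Mir27b and Mir24-1 within 792 bases at chr13:63300484-63301275. MiR-24-3p is encoded at chr8:84208875-84208896 and again at chr13:63301251-63301272, so its signal cannot be assigned to either cluster.

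RNA integrity numbers, on which higher values stand for more intact RNA, were 8.8 to 9.0 at 0 h and 2.3 to 2.5 after storage. In depleted RNA they were 9.0 to 9.4 without RNase, 6.0 to 7.0 at 0.026 U and 2.4 to 2.9 at 0.67 U. Between 273 and 342 miRNAs were detected per 0 h array, 582 to 707 per stored array, 186 to 238 per depleted array without RNase and 255 to 408 per array with RNase. Hepatocyte miRNAs marked the tissue as labelled: miR-122-5p, the dominant liver miRNA, was detected on all 24 arrays, at 6767 to 13686 intensity units at 0 h. The arrays were put on a common scale by variance stabilizing normalization (vsn), which gives values close to log2 at high signals, called glog2. This step set stored arrays down by 1.07 to 1.71 on the log2 scale and 0 h arrays up by 0.29 to 0.49, so the signals before normalization are given first and every change in glog2 depends on that scaling.

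All 5 members gave their highest signals in intact RNA with small RNAs. MiR-23a-3p, miR-23b-3p, miR-24-3p and miR-27b-3p were flagged detected on all 24 arrays, and no spot of any array was saturated. MiR-27a-3p was detected on all 12 arrays of RNA with small RNAs but on 9 of 12 depleted arrays: 1 of 3 untreated, 2 of 3 at 0 U and 3 of 3 at each RNase dose. On the glog2 scale the order of the 8 groups began in every member with 0 h without DNase, then 0 h with DNase, and the ranges of these groups overlapped. A gap without overlap followed in all 5 members. For miR-23a-3p and miR-24-3p the other 6 groups formed a chain in which each group overlapped the next, with the 4 depleted groups above the stored ones. This order of depleted and stored groups belongs to the glog2 scale and turned over in signal before normalization, where the stored means were 70.8 and 54.8 units for miR-23a-3p against 25.1 to 38.5 units in the depleted groups, and 48.9 and 52.0 against 14.8 to 22.4 units for miR-24-3p. MiR-23b-3p had a second gap, below the depleted groups, with the stored groups last at 3.37 ± 0.404 (SD, n = 3) and 3.25 ± 0.965 (SD, n = 3) glog2. In signal before normalization it had no such gap, with 16.3 to 41.6 units stored and 23.3 to 35.3 units in depleted RNA without RNase. MiR-27a-3p had its second gap in the opposite place. Its stored groups came next in order after the 0 h groups, at 4.41 and 4.36 against 6.62 and 6.83 glog2. All its depleted groups came last, at 1.95 to 2.15 glog2. For miR-27b-3p the stored groups also stood above the depleted ones, but neighbouring groups overlapped.

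**Figure D1:**
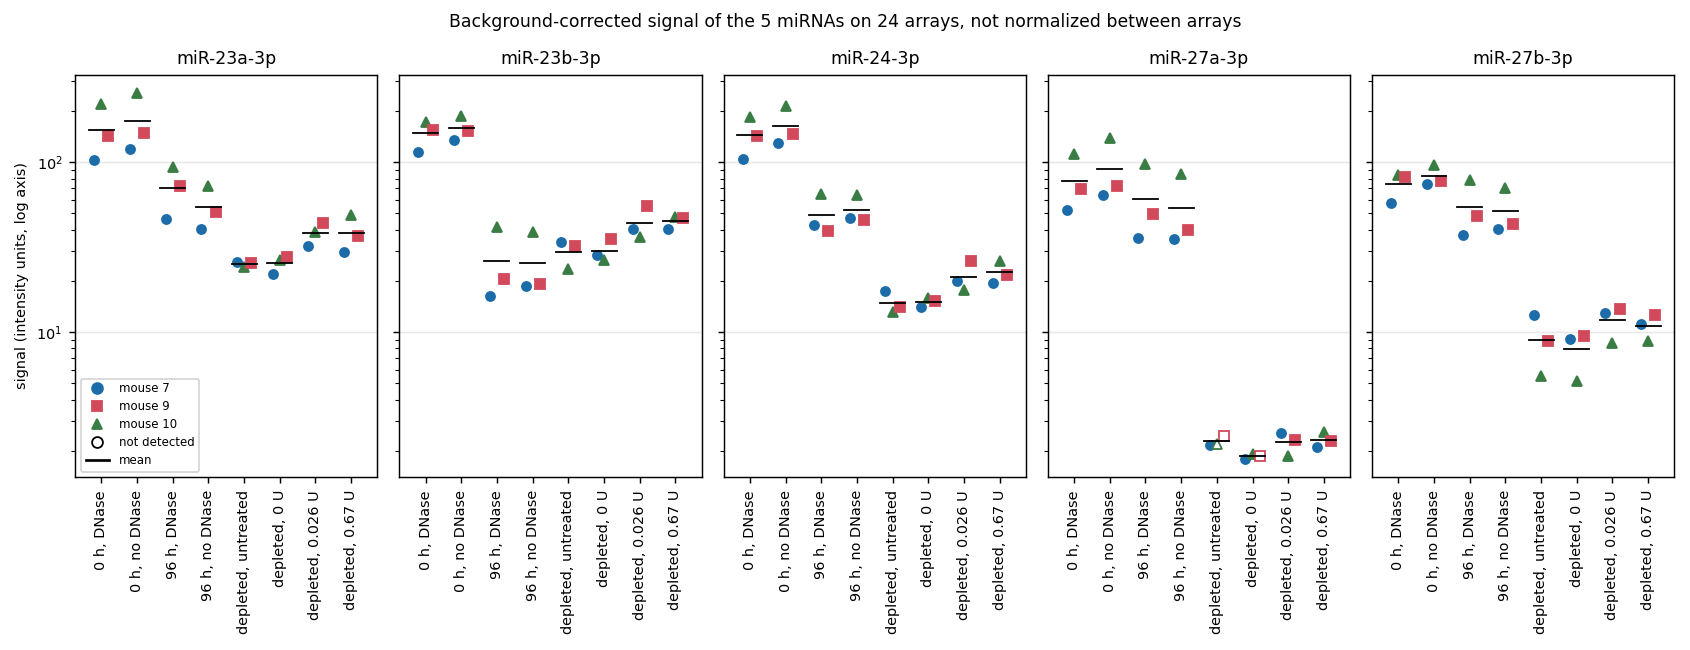
Background-corrected signal (intensity units, log axis) of each of the 5 miRNAs on the 24 arrays, by group, with symbols for the 3 mice, open symbols where the miRNA was not flagged detected and a bar at the mean of 3 arrays. MiR-23b-3p has its lowest signals in stored RNA, at 16.3 to 41.6 units, a range overlapping that of depleted RNA. MiR-27a-3p is lowest in depleted RNA, at 1.78 to 2.59 units.

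The first comparison asked what 96 h of storage did to these miRNAs in DNase-treated RNA. All 5 were called lower, and miR-23b-3p fell the most. Its signal in mice 7, 9 and 10 was 115, 156 and 172 units at 0 h and 16.3, 20.6 and 41.6 units after storage. The groups were far apart, with a mean 5.64-fold lower after storage, and mouse 10 kept the highest signal. Its paralogue miR-23a-3p went from 102, 143 and 218 units to 46.0, 72.5 and 93.8 units, a mean 2.19-fold lower, again without overlap. MiR-24-3p, the member shared by both clusters, went from 105, 143 and 185 units to 42.7, 39.2 and 64.7 units, 2.95-fold lower. For both miR-27 members the signals of the groups overlapped. MiR-27a-3p had 52.1, 69.2 and 112 units at 0 h and 35.7, 49.8 and 97.0 units after storage, and miR-27b-3p had 57.6, 81.5 and 84.0 units against 37.4, 48.0 and 78.4 units. Within each mouse the stored part was the lower one for both.

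In the limma fit a miRNA was called where its Benjamini-Hochberg adjusted p over 631 miRNAs was under 0.05 and its change at least 1 glog2. MiR-23b-3p changed by -4.34 ± 0.36 (SE) with an adjusted p of 2.97e-09. MiR-24-3p changed by -3.35 ± 0.30 (adjusted p = 5.96e-09) and miR-23a-3p by -2.92 ± 0.35 (adjusted p = 2.12e-07). The smallest changes were those of miR-27b-3p, -2.29 ± 0.39 (adjusted p = 1.43e-05), and miR-27a-3p, -2.21 ± 0.40 (adjusted p = 3.12e-05). Each was lower in 3 of 3 mice. Of all 631 miRNAs tested 21.6% were called lower and 60.4% higher, with a median change of 2.47. The members thus went against the greater part of the miRNAs tested. Shares of all miRNAs given here and below are of these 631, those detected on at least 5 of 24 arrays. Stored arrays, which detected the most miRNAs, could admit a miRNA to this set on their own. Without this filter 656 of 1881 were called higher and 559 lower, with a median change of -0.003. Scaled by the 4 spike-in features instead, the changes were -1.57 for miR-23a-3p, -3.05 for miR-23b-3p and -2.01 for miR-24-3p, all called, but -0.86 and -0.95 for miR-27a-3p and miR-27b-3p, which were not. Without normalization the same 3 were called, and the miR-27 changes were -0.41 and -0.50.

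RNA isolated without DNase gave the same count, with all 5 lower against 23.0% of the 631 miRNAs tested called lower and 60.5% higher. MiR-23b-3p again changed most, by -4.32 ± 0.36 (adjusted p = 2.79e-09), from 136, 152 and 187 units at 0 h to 18.6, 19.2 and 38.7 units in mice 7, 9 and 10. MiR-23a-3p fell from 119, 148 and 256 units to 40.6, 50.9 and 72.8 units, and miR-24-3p from 129, 147 and 215 units to 47.1, 45.4 and 63.7 units. In both, mouse 10 was highest before and after storage. MiR-27a-3p had 64.4, 72.4 and 138 units at 0 h and 35.1, 39.7 and 85.3 units after storage, and miR-27b-3p had 74.0, 77.5 and 96.1 units against 40.5, 43.0 and 70.3 units. MiR-23a-3p and miR-24-3p both changed by -3.29 glog2, and miR-27a-3p and miR-27b-3p by -2.46 and -2.38, with a largest adjusted p of 9.85e-06 among the 5. Here the signals of miR-27b-3p did not overlap between the groups, whereas those of miR-27a-3p did. With spike-in scaling all 5 were called, and without normalization the 3 members other than the miR-27 pair. The difference between both storage changes was tested as an interaction in the limma fit: it lay between -0.37 and 0.06 for the members, none was called (smallest unadjusted p = 0.469), and 0.158% and 0.951% of all miRNAs were called lower and higher. The widest interval, that of miR-27a-3p, ran from -1.42 to 0.91, so a difference of up to 1.42 is within it.

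**Figure D2:**
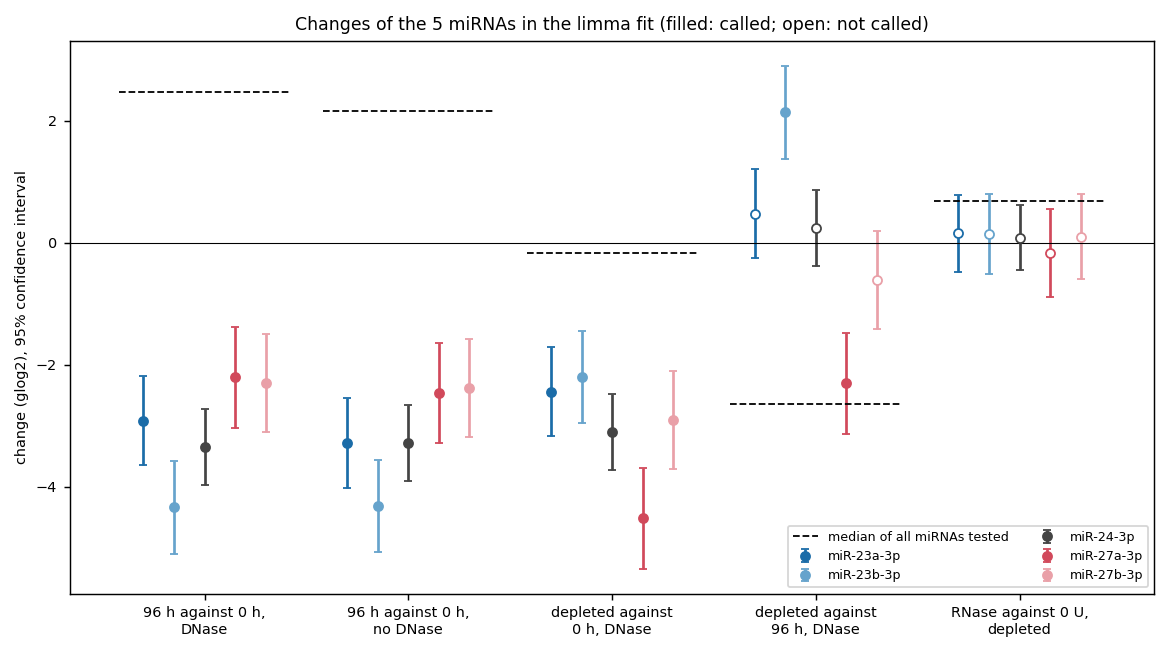
Change of each of the 5 miRNAs in glog2 with its 95% confidence interval from the limma fit in 5 comparisons, filled where called, with a dashed line at the median change of all 631 miRNAs tested. The 5 miRNAs lie between -4.34 and -2.21 after storage with DNase while the median is 2.47, and none is called with RNase.

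Leaving out DNase moved no member past the threshold at either time. At 0 h the changes ranged from 0.09 for miR-23b-3p to 0.21 for miR-27a-3p, and limma called none of the 5 and none of the 631 miRNAs. No member had an unadjusted p under 0.05, against 30 of all miRNAs. At 96 h the members changed by -0.22 to 0.23 and again none was called or had an unadjusted p under 0.05, while 4.60% of all miRNAs were called lower and 6.18% higher. The exact rank test called 0 of 631 miRNAs at either time, since 3 arrays against 3 cannot pass, and so says nothing about the members. At 96 h miR-24-3p was higher without DNase in 2 of 3 mice.

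The second comparison set depleted RNA against intact 0 h RNA with small RNAs, both DNase-treated. All 5 members were lower, and miR-27a-3p fell furthest, to the edge of detection. Its signal went from 52.1, 69.2 and 112 units to 2.17, 2.44 and 2.19 units in mice 7, 9 and 10, a ratio of means of 34.3. Only 1 of these 3 depleted arrays was flagged detected, so the fold rests largely on signals that the scanner software did not call. MiR-27b-3p, 1 base different, was detected on every depleted array, at 12.6, 8.80 and 5.51 units, 8.29-fold below its 0 h mean. MiR-24-3p fell to 17.4, 14.0 and 13.2 units, 9.71-fold lower. MiR-23a-3p fell to 25.8, 25.4 and 24.1 units, a narrow range, although the 0 h signals of these mice spanned 102 to 218 units. MiR-23b-3p fell the least, to 34.0, 31.9 and 23.3 units, 4.96-fold lower.

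In the limma fit these changes were -4.52 ± 0.40 (SE) for miR-27a-3p (adjusted p = 1.03e-08), -3.11 ± 0.30 for miR-24-3p (adjusted p = 3.99e-08) and -2.90 ± 0.39 for miR-27b-3p (adjusted p = 3.34e-06). For miR-23a-3p the change was -2.44 ± 0.35 (adjusted p = 9.22e-06) and for miR-23b-3p -2.20 ± 0.36 (adjusted p = 4.77e-05). All were lower in 3 of 3 mice and without overlap in signal. Of all miRNAs 24.4% were called lower and 5.39% higher, with a median change of -0.17. Some alternatives lowered the count. Scaled to the upper quartile (75th percentile) of those miRNAs that every array detected, or quantile-normalized, 2 of 5 were called, and with normexp background correction only miR-27a-3p, at -1.77. Under quantile normalization and normexp the change of miR-23b-3p was 0.17 and 0.036, not called.

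Depleted RNA was then set against stored RNA, the 2 kinds of sample in which these miRNAs were low. The members split: miR-23b-3p was called higher in depleted RNA, by 2.14 ± 0.36 (SE; adjusted p = 2.09e-05), and miR-27a-3p lower, by -2.31 ± 0.40 (adjusted p = 2.21e-05). Changes of miR-23a-3p (0.48), miR-24-3p (0.24) and miR-27b-3p (-0.61) were not called. Of the 631 miRNAs tested 61.6% were called lower and 7.77% higher, with a median of -2.65. Without the detection filter 661 of 1881 were called lower and 552 higher, with a median of -0.05. In signal before normalization, however, miR-23a-3p, miR-24-3p and miR-27b-3p were 2.82-fold, 3.29-fold and 6.09-fold lower in depleted than in stored RNA, each without overlap. MiR-27a-3p also lay lower without overlap, at 2.17 to 2.44 units, flagged detected on 1 of 3 arrays, against 35.7 to 97.0 units. MiR-23b-3p had 23.3 to 34.0 units in depleted RNA, inside the 16.3 to 41.6 units of stored RNA. Under each of 9 scalings miR-27a-3p had the lowest value of the 5, an order that a plain factor for each array cannot change. That value lay between -4.62 and 0.35, so its sign depended on the scaling. MiR-23b-3p lay above 0 in all 9, between 0.29 and 5.74.

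RNase treatment of depleted RNA asked whether broken RNA of other kinds adds signal to the probes of these miRNAs. Averaged over both doses and set against 0 U, no member was called, with changes of 0.15 for miR-23a-3p, 0.14 for miR-23b-3p, 0.08 for miR-24-3p, -0.17 for miR-27a-3p and 0.09 for miR-27b-3p. The smallest unadjusted p among them was 0.622 in limma. The exact rank test, here of 6 arrays against 3, called 0 of all 631 miRNAs after adjustment, so its lack of calls does not set the members apart. Over all miRNAs 44.7% were called higher and 0% lower, with a median change of 0.69, so the members were among those that did not pass. Without the detection filter 345 of 1881 were called higher and 32 lower, with a median change of -0.16. The 95% intervals of the members reached at most 0.79 upwards and -0.89 downwards. In signal before normalization the members were slightly higher with RNase. MiR-23a-3p had 21.8 to 27.6 units at 0 U and 29.5 to 48.9 units over both doses, without overlap, a ratio of means of 1.51. MiR-23b-3p had 28.4, 35.3 and 26.5 units at 0 U in mice 7, 9 and 10, and 40.5, 55.1 and 36.4 units at 0.026 U and 40.2, 46.9 and 47.7 units at 0.67 U. The lowest of the 6 RNase arrays thus stood above the highest array without enzyme. MiR-24-3p had 14.0, 15.3 and 15.9 units at 0 U, 19.9, 26.0 and 17.6 units at 0.026 U and 19.5, 21.7 and 26.1 units at 0.67 U. The ratios of means were 1.48 for miR-23b-3p and 1.44 for miR-24-3p, whereas miR-27a-3p (1.23) and miR-27b-3p (1.43) overlapped between the groups. MiR-27a-3p stayed between 1.78 and 2.59 units on all 9 of these arrays. With the upper quartile of the miRNAs that every array detected, or with quantile normalization, all 5 were called lower, and with the upper quartile of all miRNAs 1 of 5, so that neither a direction nor its absence can be given without the scaling.

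The doses gave the same picture one by one. At 0.026 U changes ran from -0.14 to 0.21 and at 0.67 U from -0.20 to 0.11, with no member called and none with an unadjusted p under 0.05. Of all miRNAs 36.6% were called higher and 0.158% lower at 0.026 U, and 44.8% and 0.475% at 0.67 U. Without the detection filter 249 of 1881 were called higher and 14 lower at 0.026 U, and 353 and 43 at 0.67 U. With the arrays of mouse 9 assigned by their titles, 0 members were called at either dose too. Incubation at 0 U without enzyme, against untreated depleted RNA, changed the members by 0.05 to 0.32, none called and none with an unadjusted p under 0.05, while 0.158% of all miRNAs were called higher and 1.58% lower.

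Since a plain factor for an array moves both its paralogues together, the difference between them within an array is nearly free of such scaling. Quantile normalization and normexp can still change it. Its level compares different probes and has no meaning of its own, so only its change between groups was examined. MiR-23b-3p minus miR-23a-3p was -0.05 ± 0.28 (SD, n = 6 arrays) glog2 on the 0 h arrays and -1.27 ± 0.30 (SD, n = 6 arrays) on the stored arrays. Each set held 2 arrays from each of 3 mice. The ranges, -0.45 to 0.19 and -1.76 to -0.89, did not overlap. The difference changed by -1.22 with storage and in the same direction in 3 of 3 mice, by -1.43, -1.63 and -0.62 in mice 7, 9 and 10. The two-sided exact permutation p, exchanging arrays within a mouse, was 0.00926, the smallest that this design allows, and 0.0556 after Benjamini-Hochberg adjustment over the 6 such tests made, which does not pass 0.05. The units exchanged were arrays, and the animals behind them were 3 mice. With normexp background correction both members lay much closer: miR-23a-3p changed by -2.08 and miR-23b-3p by -2.35 with DNase. Without DNase these changes were -2.06 and -2.23. For the miR-27 pair no change with storage was seen: miR-27b-3p minus miR-27a-3p was -0.04 in both kinds of RNA, and its change in the 3 mice, -0.04, -0.14 and 0.18, had no common sign (exact permutation p = 0.991, adjusted p = 0.991).

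With depletion it was the miR-27 pair that drew apart. MiR-27b-3p minus miR-27a-3p rose from -0.04 ± 0.33 (SD, n = 6 arrays of 3 mice) at 0 h to 1.60 ± 0.61 (SD, n = 3) in untreated depleted RNA, without overlap. The change was 1.65, and 2.06, 1.39 and 1.49 in mice 7, 9 and 10. In the exact permutation test p was 0.037, the smallest possible with 27 relabellings, and 0.0556 adjusted. On all 12 depleted arrays, RNase or not, the difference lay between 1.02 and 2.23. The size of the gap varied with the scaling. Against 0 h RNA with DNase, miR-27a-3p and miR-27b-3p changed by -4.52 and -2.90 with vsn. These changes were -3.97 and -1.29 with quantile normalization, and -1.77 and -0.75 with normexp. MiR-23b-3p minus miR-23a-3p moved by 0.27 with depletion, in 3 of 3 mice but with overlapping ranges (exact permutation p = 0.037, adjusted p = 0.0556). Within depleted RNA the RNase doses moved the miR-23 difference by -0.02 (exact permutation p = 0.556, adjusted p = 0.667) and the miR-27 difference by 0.27, in 3 of 3 mice (exact permutation p = 0.037, adjusted p = 0.0556). That last change was 0.16 without mouse 10, and -0.48 with normexp background correction. For miR-27a-3p near the detection limit the glog2 scale compresses differences: in plain log2 the mean difference of the untreated depleted arrays was 1.91.

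**Figure D3:**
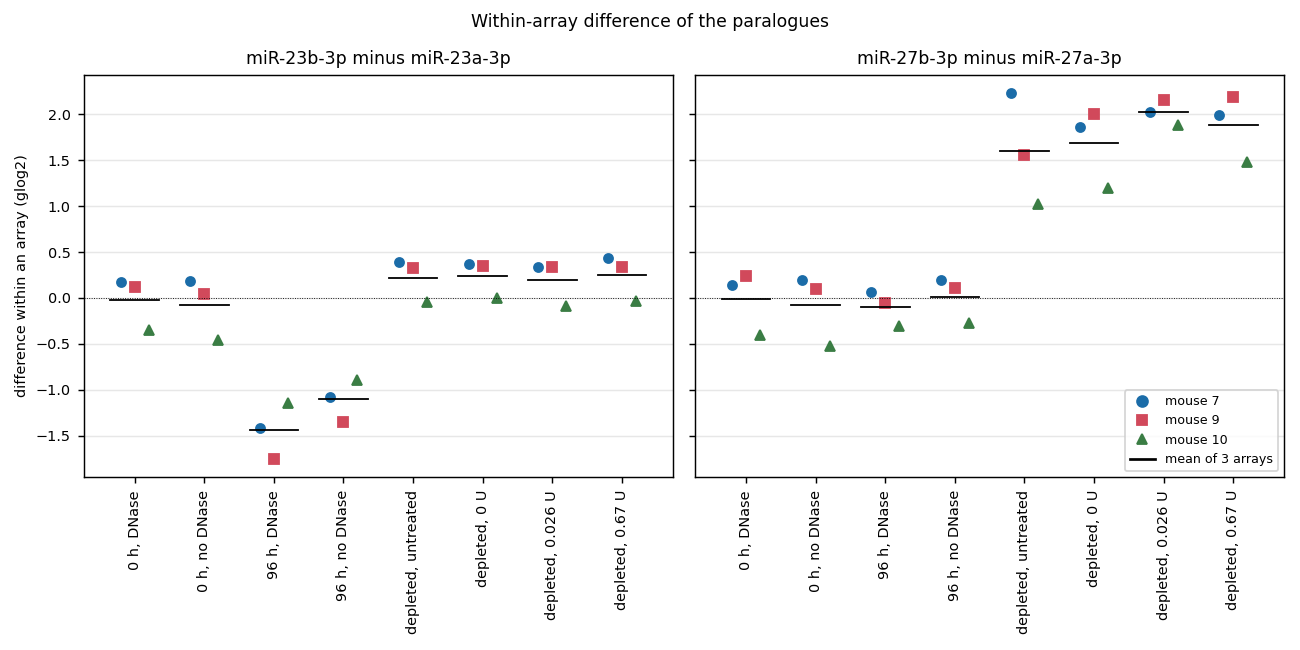
Difference between paralogues within each array in glog2, miR-23b-3p minus miR-23a-3p on the left and miR-27b-3p minus miR-27a-3p on the right, by group, with symbols for the 3 mice and a bar at the mean of 3 arrays. The miR-23 difference drops in the stored groups, to between -1.76 and -0.89, and the miR-27 difference rises in all depleted groups, to between 1.02 and 2.23.

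Mouse 10 stood apart in the balance of the clusters before any treatment. On its 0 h arrays the b member was lower relative to the a member than in the other mice for both pairs, at -0.45 and -0.35 for miR-23 against 0.04 to 0.19 in mice 7 and 9, and at -0.52 and -0.41 for miR-27 against 0.10 to 0.23. In signal before normalization all 5 members were highest in mouse 10 at 0 h, and the a members stood out most. MiR-23a-3p had 218 and 256 units in mouse 10 and 102 to 148 units in the other mice, and miR-27a-3p 112 and 138 against 52.1 to 72.4 units. MiR-23b-3p had 172 and 187 against 115 to 156 units, and miR-27b-3p 84.0 and 96.1 against 57.6 to 81.5 units. MiR-24-3p had 185 and 215 against 105 to 147 units. The 0 h arrays of mouse 10 also had the highest total detected signal, 109374 units with DNase and 163493 without. On the glog2 scale with DNase, miR-23b-3p had 7.72 in mouse 10 and 7.77 in mouse 9, and miR-27b-3p 6.69 and 6.84. The a members and miR-24-3p stayed highest in mouse 10 there, and without DNase all 5 did. Mouse, slide and scan were the same unit here and cannot be told apart.

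Each member was read by 2 probes of 15 spots each, and both gave the same picture in log2 of the probe totals. With storage in DNase-treated RNA the miR-23b-3p probes changed by -2.55 and -2.72, and those of miR-23a-3p by -0.99 and -1.17. The miR-24-3p probes changed by -1.46 and -1.64, those of miR-27a-3p by -0.49 and -0.37, and those of miR-27b-3p by -0.48 and -0.57. With depletion the miR-27a-3p probes changed by -5.28 and -4.72 and the miR-27b-3p probes by -2.97 and -3.18. All of these are changes before normalization. In untreated depleted RNA the mean totals were low, 0.63 and 1.90 units for the miR-27a-3p probes and 7.51 and 1.88 units for the miR-27b-3p probes. In that order, all 15 spots were well above background on 12, 12, 24 and 11 of the 24 arrays. Probes of near-identical miRNAs can bind the paralogue too, and how much they did was not tested.

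The 5p arms of the same hairpins and the antisense miR-3074 gave almost no signal. None of the 6 other arms and none of the 3 miR-3074 forms was detected on the 5 arrays needed for testing. The arm with the most detections was miR-24-2-5p, encoded at chr8:84208839-84208860, which was flagged detected on 2 of 6 arrays at 0 h and had 1.69 to 4.07 units over these 6. On the 6 stored and 12 depleted arrays it was detected on none, and its background-corrected signals were below 0. MiR-24-1-5p, the corresponding arm of the other cluster, was detected on no array and had 0.67 to 1.03 units at 0 h. MiR-3074-5p, which lies on the minus strand across the miR-24-3p sequence, was detected on no array.

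The members did not move as one. Across the 24 arrays the Pearson correlation between members ran from 0.381, for miR-23b-3p with miR-27a-3p, to 0.966, for miR-23a-3p with miR-24-3p. Within the pairs it was 0.923 for miR-23 and 0.918 for miR-27. MiR-24-3p was closest to the mean of the 5 centred profiles, with r = 0.992, and miR-23b-3p the farthest, with r = 0.816. Among all other miRNAs tested those most like that mean were miR-126a-3p (r = 0.992), miR-497a-5p (0.988), miR-29a-3p (0.987), miR-146a-5p (0.986) and miR-223-3p (0.982), over the same 24 arrays. These correlations are descriptions: the arrays share 3 mice and 8 groups, and the group differences set most of their size.

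MiR-126a-3p, an endothelial miRNA, changed by -4.28 with storage (adjusted p = 1.01e-08) and -4.12 with depletion (adjusted p = 5.06e-08) in the limma fit. MiR-223-3p, a miRNA of myeloid cells, changed by -2.85 (adjusted p = 2.12e-07) and -2.66 (adjusted p = 2.21e-06). Both were picked for their likeness to the members on these same arrays, so these falls and p-values are no separate support. Markers of other cells moved in the same RNA, not all of them in the direction of the members. The summed signal of both endothelial markers was 289 to 604 units at 0 h, 55.7 to 131 units after storage and 15.5 to 27.8 units in depleted RNA without RNase, where miR-126a-5p was detected on no array. The 4 white blood cell markers summed to 45.0 to 184 units at 0 h and 11.5 to 38.5 units after storage, with miR-142a-5p and miR-150-5p detected on no stored array. The 3 hepatocyte markers, all detected on every array, summed to 7655 to 15146 units at 0 h, 3546 to 6741 units after storage and 2027 to 3504 units in depleted RNA without RNase. MiR-122-5p made up most of these sums. In the same order miR-192-5p had 619 to 1053, 420 to 570 and 17.02 to 30.45 units, and miR-194-5p had 269 to 450, 84.9 to 197 and 13.8 to 22.9 units. The 3 red blood cell markers summed to 224 to 575, 182 to 243 and 6.05 to 9.79 units in the same order, the 4 stroma and smooth muscle markers to 38.5 to 132, 12.3 to 37.4 and 2.56 to 5.04 units, and the 4 biliary markers to 7.79 to 16.0 units at 0 h, with none detected on a stored or depleted array. Single markers went against their list's sum. The red blood cell miR-486a-5p had 2.11 to 5.92 units at 0 h and 31.0 to 31.8 units after storage with DNase, and 2.09 to 6.02 against 29.2 to 37.3 units without DNase, higher after storage without overlap. The smooth muscle miR-145a-5p had 2.37 to 8.57 units at 0 h and 4.40 to 30.3 units after storage with DNase, where the groups overlapped. Without DNase it went with its list, from 2.21 to 9.49 units at 0 h to 0.46 to 3.20 units, detected on no stored array. Fewer cells of a type and less RNA per cell cannot be told apart in such bulk RNA, and the part of any cell type in the members' changes was not tested.

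**Figure D4:**
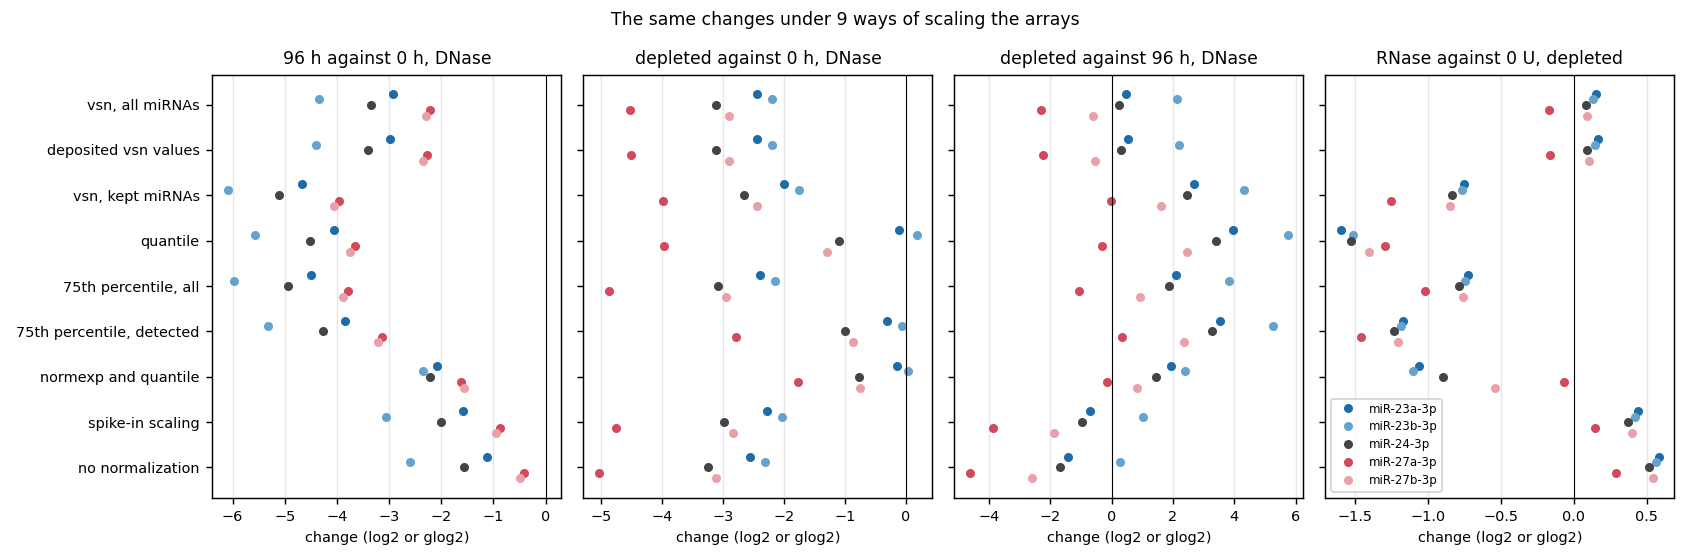
Change of each of the 5 miRNAs (log2 or glog2) in 4 comparisons, with 1 row for each of 9 ways of scaling the arrays. After storage all points lie below 0 and miR-23b-3p is the lowest in all 9 rows. With depletion miR-27a-3p is the lowest in all 9, and with RNase the sign of the changes depends on the row. Rows that differ by a plain factor for each array cannot differ in the order of the miRNAs.

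The order of the members varied less than the size of their changes. A plain factor for each array moves all its members alike in log2, so such scalings cannot change their order. Only vsn, quantile normalization and normexp do more than this, so the order under the other scalings is no separate support. Under 9 ways of scaling, miR-23b-3p had the lowest change of the 5 with storage in each, between -6.08 and -2.35 with DNase and between -6.09 and -2.23 without. MiR-27a-3p changed least or nearly so, between -3.97 and -0.41 with DNase. With depletion miR-27a-3p had the lowest change in each, between -5.03 and -1.77, and miR-23b-3p the highest value of the 5, between -2.31 and 0.17.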

How the data were processed

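Liver RNA of 3 mice was measured on 24 arrays, 3 in each of 8 groups taken from the labels. The members and lists were chosen with earlier results of these data known. Per the file headers, the authors scanned with Agilent Feature Extraction 10.10.1.1 (design build mm9), and the deposited scanner files hold background-corrected fluorescence intensity and a detection flag. The authors also deposited a table of vsn values on a log2 scale, used here as an alternative. Each miRNA's signal was the scanner software's total gene signal, replaced by the summed probe totals where not flagged detected. Vsn was recomputed (Python 3.11.15; numpy 2.4.6, scipy 1.17.1, pandas 2.3.3; 7 rounds, 90% of miRNAs kept in each of 5 slices) and differed from the deposited values by 0.0956 (SD). MiRNAs detected on at least 5 of 24 arrays were tested, 631 of 1881.

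Comparisons used limma 3.58.1 under R 4.3.3 (8 group means, variance trend, no term for the mouse), with Benjamini-Hochberg adjustment within each of 11 comparisons; called means an adjusted p under 0.05 and a change of at least 1. The rank test of the study's methods cannot pass with 3 arrays against 3, where its smallest p is 0.1. Within-array differences were tested by two-sided exact permutation within mice. The fit and the permutation were tested on simulated data. The number of arrays limits the precision. Slide and scan were common to the 8 arrays of each mouse. The mouse number in the labels pairs the arrays: deviations from group means correlated with a mean r of 0.0914 within a mouse and -0.045 between mice. No arrays of a group were identical. The miRNAs named were the 5 members, their other arms, the antisense miR-3074, miR-122-5p, the 5 most alike others and fixed cell type markers. Alternatives were other scalings, background correction by normexp (offset 50), filters, the replicate block and leaving out each mouse. Figures were drawn with matplotlib 3.10.9.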

Additional observations from a re-analysis of the deposited data

How the results depend on the processing

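How many members were called depended on the scaling of the arrays. With storage and DNase, 3 in place of 5 were called lower after spike-in scaling and also without normalization, and without DNase 3 when not normalized. With depletion 2 were called lower when scaled to the 75th percentile of those miRNAs that every array detected (upper quartile, detected), 2 by quantile and 1 by normexp, and miR-23b-3p then changed by 0.17 (quantile) and 0.036 (normexp). The exact rank test called 0 in these 3 comparisons and in depleted against stored RNA, the only count that groups of 3 arrays allow it. In depleted against stored RNA, 1 lower and 1 higher became 2 lower and 1 higher with spike-in scaling; 0 lower and 4 higher by upper quartile (detected), by quantile and by vsn fitted to kept miRNAs; 0 lower and 3 higher with normexp; 1 lower and 3 higher by upper quartile (all miRNAs); and 4 lower and 0 higher with no normalization. There miR-23a-3p and miR-24-3p turned to -1.44 and -1.69 with no normalization, miR-27a-3p to 0.35 and miR-27b-3p to 2.35 by upper quartile (detected), and miR-27b-3p to 2.46 by quantile and 1.61 by vsn fitted to kept miRNAs. The cause was not tested.

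With RNase at both doses, where none was called, 5 were called lower by upper quartile (detected), 5 by quantile, 2 by normexp, 1 by upper quartile (all miRNAs) and 1 by vsn fitted to kept miRNAs. The values that turned, in the order upper quartile (detected), quantile and normexp, were -1.17, -1.59 and -1.06 for miR-23a-3p and -1.19, -1.51 and -1.10 for miR-23b-3p; with the first 2 they were -1.23 and -1.53 for miR-24-3p and -1.21 and -1.40 for miR-27b-3p. At 0.026 U 3 were called lower with each of the first 2 and 1 by vsn fitted to kept miRNAs. Values that turned were miR-23a-3p at -1.36 with quantile normalization, miR-23b-3p at -1.03 and -1.26, and miR-24-3p at -1.09 and -1.33. At 0.67 U 5 were called lower with each, 2 by vsn fitted to kept miRNAs and 2 by normexp. Values that turned were miR-23a-3p at -1.35, -1.83 and -1.22, miR-23b-3p at -1.35, -1.76 and -1.25, and miR-24-3p at -1.37 and -1.73.

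Leaving out 1 mouse changed no count of members called. The change of the miR-23 difference was then -1.53 to -1.02 with storage and 0.23 to 0.30 with depletion, and that of the miR-27 difference 1.44 to 1.77 with depletion and 0.16 to 0.32 with RNase; with 2 mice these exact permutation tests cannot pass 0.05. The last of these was 0.25 on plain log2 values with a floor, no longer under 0.05 before adjustment, and -0.48 with normexp. With the replicate block the counts were 5 lower with storage in either DNase state and with depletion, 1 lower and 1 higher in depleted against stored RNA, and 0 in all other comparisons, so the block changed no call. For single members 795 of 885 values under an alternative kept their direction and their call, or were called in neither. The number of arrays and the closeness of miR-27a-3p to background in depleted RNA limit the precision.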
